A study of Homo sapiens with 6 samples.

Results

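The genes described are 10 chemokine-related genes of the human hepatocellular carcinoma line Huh-7: the CXC chemokines CXCL1, CXCL2, CXCL3, CXCL5, CXCL6, CXCL8 and CXCL16, the chemokine CCL20 with its receptor CCR6, and the macrophage growth factor CSF1. They were taken by symbol from the deposited table of raw counts, where each matched 1 row, so that they make up 10 of its 20332 genes. The members were selected on measured values: their difference between cells with RAC3 overexpression and negative controls in these same samples was known when they were chosen, with CXCL5 as the leading gene. Their values in this comparison are therefore given as a description, without a test. Huh-7 is an established line of liver cancer cells. The negative controls (3 samples) were Huh-7 cells labelled wild type, and the RAC3 samples (3 samples) came from Huh-7 cells that stably overexpressed RAC3, a small GTPase, from a lentivirus. In the genotype field, 2 of the RAC3 samples (2 and 3) carry the names RAC4 and RAC5, while their titles name RAC3. The control virus, the number of clones and whether the samples of a group came from separate cultures are not given beyond the word independent, so the spread between samples may be technical.

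Chemokines are small secreted proteins that guide leukocytes along gradients. CXCL1, CXCL2, CXCL3, CXCL5, CXCL6 and CXCL8 carry the ELR motif ahead of their CXC cysteines, bind the receptors CXCR1 and CXCR2, and attract mainly neutrophils. They are typical targets of NF-kappaB after interleukin-1 or tumour necrosis factor, and liver cancer cells are a known source of them. CXCL16 is made as a membrane protein, binds CXCR6 and is shed by ADAM10, CCL20 binds CCR6 on lymphocytes and dendritic cells, and CSF1 binds CSF1R on monocytes and macrophages.

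Polyadenylated RNA was sequenced, and the table holds whole-number counts per gene. Total counts were 14368764, 15269997 and 18199888 for the negative controls 1, 2 and 3. For the RAC3 samples 1, 2 and 3 they were 17332318, 16225766 and 13855762. Counts were scaled by TMM, and levels are given as normalized CPM, the counts of a gene relative to the scaled library total. RAC3 itself had 35.6, 31.4 and 32.8 CPM in the negative controls and 232.6, 239.6 and 225.4 CPM in the RAC3 samples. All 3 RAC3 samples, including the pair with other names in the genotype label, were thus above all controls, with a log2 fold change of 2.81 (SE 0.0574, adjusted p = 9.6e-18 in the edgeR quasi-likelihood test, Benjamini-Hochberg method).

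The 6 neutrophil-attracting CXC genes lie in a cluster of 359 kb on chromosome 4, and their promoters are shown so that close relatives can be compared letter by letter. RefSeq promoters (GRCh38.p14) were found for 8 of the 10 genes and for neither CXCL16 nor CSF1. The lines give the 100 bases before the RefSeq start of transcription, 5′ to 3′ on the strand of the gene. Capitals mark matches to the kappaB motif GGNNTTTCC on either strand.
CXCL1: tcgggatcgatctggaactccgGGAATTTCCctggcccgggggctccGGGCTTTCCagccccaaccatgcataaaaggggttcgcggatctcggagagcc
CXCL2: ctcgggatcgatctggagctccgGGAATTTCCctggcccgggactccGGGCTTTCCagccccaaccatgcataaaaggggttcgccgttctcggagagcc
CXCL3: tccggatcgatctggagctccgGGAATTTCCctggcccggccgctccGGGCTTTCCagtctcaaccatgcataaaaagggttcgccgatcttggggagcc
CXCL5: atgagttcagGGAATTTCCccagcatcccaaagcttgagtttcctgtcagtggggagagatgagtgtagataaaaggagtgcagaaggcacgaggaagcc
CXCL6: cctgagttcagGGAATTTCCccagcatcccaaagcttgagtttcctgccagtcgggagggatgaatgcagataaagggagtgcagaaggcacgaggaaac
CXCL8: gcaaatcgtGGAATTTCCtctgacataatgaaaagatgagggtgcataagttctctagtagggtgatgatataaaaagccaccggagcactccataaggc
CCL20: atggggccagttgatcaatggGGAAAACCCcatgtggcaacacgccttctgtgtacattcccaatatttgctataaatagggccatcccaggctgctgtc

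These stretches are chr4:73869293-73869392 (plus strand) for CXCL1, chr4:74099196-74099295 (minus) for CXCL2, chr4:74038690-74038789 (minus) for CXCL3, chr4:73998678-73998777 (minus) for CXCL5, chr4:73836578-73836677 (plus) for CXCL6, chr4:73740469-73740568 (plus) for CXCL8 and chr2:227813742-227813841 (plus) for CCL20. By the gene spans given below, which come from another annotation, the stretch of CXCL1 lies upstream of its gene and the others lie partly or wholly inside theirs. All 7 held a match, which 5.48% of the 35116 promoters in the table do within 250 bases of the start. In the CXC genes the first match was the same run, GGAATTTCC, and began 91 bases before the start in CXCL8 (position -91), at -90 in CXCL5, at -89 in CXCL6, at -78 in CXCL1 and CXCL3 and at -77 in CXCL2. CXCL1, CXCL2 and CXCL3 held a further match, GGGCTTTCC, at -53. None of the 3 CCR6 promoters of the table held the motif. An AP-1 motif, TGANTCA, was searched in the same 250 bases on both strands. Of the 8 members with a promoter it was found in CXCL8 alone, at -137, against 6.57% of all promoters. The kappaB and AP-1 matches of CXCL8 did not overlap. Aligned over 250 bases, the promoters of CXCL5 and CXCL6 were identical at 85.3% of columns, those of CXCL1 and CXCL3 at 81.4%, of CXCL2 and CXCL3 at 73.3% and of CXCL1 and CXCL2 at 71.4%, and all other pairs at 44.7% to 54.8%. A match describes these letters and is not a measured site.

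Levels of different genes were compared per length, as the FPKM values made by the authors. In the negative controls CXCL1 stood highest with 110.7 ± 7.84 FPKM (SD, n = 3), followed by CCL20 with 100.3 ± 8.58, and the samples of these genes overlapped. CXCL16 followed with 54.4 ± 3.16, CXCL5 with 46.8 ± 2.67 and CXCL8 with 29.4 ± 3.06 FPKM, each apart from its neighbours in every sample. CXCL2 with 6.42 ± 1.02, CXCL3 with 6.32 ± 0.956 and CSF1 with 5.43 ± 0.847 FPKM formed a lower tier in which neighbours did not differ beyond their spread. CXCL6 had 3.29 ± 0.602 FPKM and CCR6 0.168 ± 0.182. Huh-7 cells thus held chiefly CXCL1 and CCL20 RNA among these genes. With RAC3 overexpression, CCL20 (103.5 ± 8.24 FPKM) and CXCL1 (99.6 ± 3.28) again led with overlapping samples. CXCL5 came next with 76.2 ± 4.74 FPKM, above CXCL16 with 44.0 ± 1.72, so that this pair stood in the opposite order to that in the negative controls. CXCL8 had 36.8 ± 2.81 FPKM, and CXCL3 (9.16 ± 0.663), CSF1 (8.49 ± 1.42) and CXCL2 (8.38 ± 0.77) overlapped as neighbours. CXCL6 (3.94 ± 0.91) and CCR6 (0.774 ± 0.62) were lowest again. The plot of FPKM levels places the genes in this order.

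**Figure D1:**
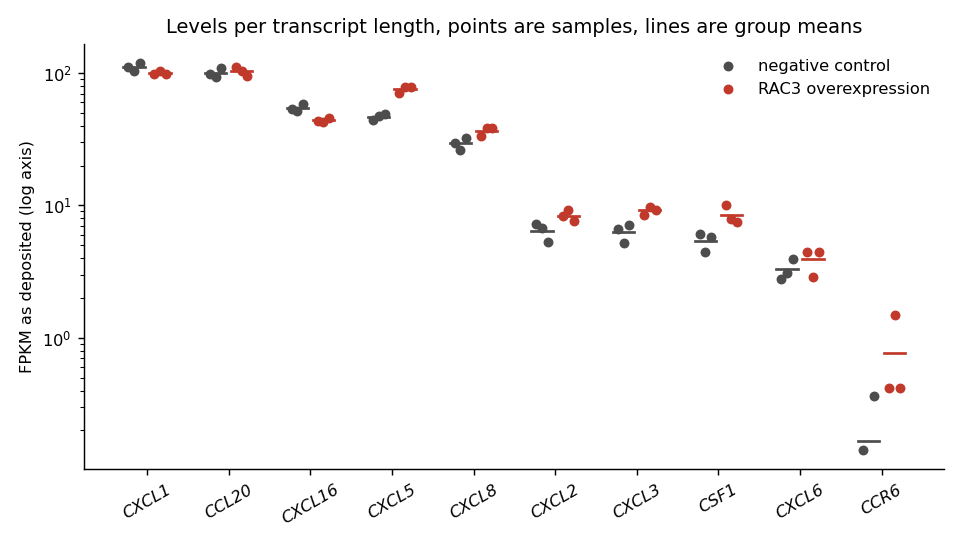
FPKM values as deposited, on a log axis, for the 10 genes in the order of their mean in the negative controls; points are samples, lines are means of 3 samples, grey is the negative control and red is RAC3 overexpression. The negative control 1 of CCR6 is listed at 0 and has no point, and CXCL5 lies below CXCL16 in the controls (46.8 against 54.4) and above it with RAC3 overexpression (76.2 against 44.0).

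CXCL5 (ENSG00000163735, chromosome 4 from 73995642 to 73998779), a neutrophil attractant, had 110.0, 117.2 and 121.4 CPM in the negative controls 1, 2 and 3 and 168.0, 189.6 and 188.7 CPM in the RAC3 samples 1, 2 and 3. The lowest RAC3 sample lay well above the highest control, and the RAC3 sample 1 was the lowest of its group. The log2 fold change was 0.65 (SE 0.0554), a ratio of 1.57, and 0.49 after the trend of each library with GC content was removed, which is below a ratio of 1.5. With 1535 to 3123 counts per sample, counting error was small: it would give a coefficient of variation of 2.34% in the controls and 1.85% in the RAC3 samples, against measured values of 4.97% and 6.71%. CXCL6 (ENSG00000124875, chromosome 4 from 73836497 to 73849064), whose promoter is closest to that of CXCL5, had 4.08, 3.26 and 5.02 CPM in the controls and 5.40, 4.37 and 5.96 CPM in the RAC3 samples. Its groups overlapped, with the RAC3 sample 2 below the negative control 3. The log2 fold change of CXCL6 was 0.33 (SE 0.204), and was 0.19 without the negative control 2 and 0.51 without the negative control 3. It rested on 49 to 96 counts per sample, and the log2 fold change of CXCL5 lay within 2 of these standard errors of it. The spread of CXCL6 in the controls, with a coefficient of variation of 21.3%, was larger than the 12.4% that counting error would give. The pseudogene PPBPP1 overlaps CXCL6 on the same strand.

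CXCL1, CXCL2 and CXCL3 are the closest relatives among the CXC genes and did not move as a unit. CXCL1 (ENSG00000163739, chromosome 4 from 73869393 to 73871242) had 134.3, 122.6 and 141.0 CPM in the negative controls and 112.2, 119.6 and 112.6 CPM in the RAC3 samples. All RAC3 samples were below all controls, by a narrow margin between the negative control 2 and the RAC3 sample 2, which overlap when taken as FPKM (102.694 and 103.417), and the log2 fold change was -0.21 (SE 0.0558). CXCL3 (ENSG00000163734, chromosome 4 from 74036589 to 74038807) had 7.38, 5.73 and 7.69 CPM in the controls and 8.89, 10.4 and 9.72 CPM in the RAC3 samples. Here the RAC3 samples were all higher, with a log2 fold change of 0.47 (SE 0.148). CXCL2 (ENSG00000081041, chromosome 4 from 74097035 to 74099293) had 8.31, 7.66 and 5.97 CPM in the controls and 9.06, 10.1 and 8.37 CPM in the RAC3 samples. The highest control and the lowest RAC3 sample nearly met, and the log2 fold change was 0.34 (SE 0.152), or 0.20 without the negative control 3. Reads could be split between these relatives: of all stretches of 50 bases in the longest transcript, 5.73% of those of CXCL1, 9.24% of CXCL2 and 3.02% of CXCL3 occur in another gene, in each case another of the 3. No stretch of 100 bases of these genes was shared. The values of CXCL2 and CXCL3, with 86 to 171 counts per sample next to 1587 to 2529 for CXCL1, are uncertain to that extent.

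CXCL8 (ENSG00000169429, chromosome 4 from 73740506 to 73743716), which encodes interleukin-8, had 50.1, 41.2 and 52.4 CPM in the negative controls and 52.9, 61.9 and 59.8 CPM in the RAC3 samples. The RAC3 sample 1 lay just above the negative control 3, and the log2 fold change was 0.28 (SE 0.0813). It was 0.18 without the negative control 2 and 0.08 after removal of the GC trend. The 6 neutrophil attractants together held 201.3, 191.3 and 216.1 FPKM in the controls and 223.5, 242.9 and 236.0 FPKM in the RAC3 samples, so that their sum of deposited FPKM was also higher in each RAC3 sample. These FPKM values do not carry the TMM factors, which were 0.9859 for the negative control 3 and 1.026 for the RAC3 sample 1. Divided by these factors, the FPKM sums of these samples would no longer lie apart in that direction. The sums of normalized CPM, which carry the TMM factors but are not per length, did lie apart. They were 314.1, 297.7 and 333.4 CPM in the controls and 356.4, 396.0 and 385.1 CPM in the RAC3 samples. Within the summed FPKM CXCL5 made up 21.8%, 24.7% and 22.7% in the controls and 31.6%, 32.5% and 33.4% in the RAC3 samples. CXCL1 made up 55.2%, 53.7% and 54.8% in the controls and 43.8%, 42.6% and 41.3% in the RAC3 samples. CXCL8 stayed between 13.7% and 16.2% in all samples. The ratio of CXCL5 to CXCL1, per length, was 0.424 ± 0.0338 in the controls (SD, n = 3) against 0.765 ± 0.043 in the RAC3 samples (SD, n = 3). The make-up of the neutrophil attractants therefore held more CXCL5 and less CXCL1 in every RAC3 sample, although CXCL1 remained the more abundant RNA.

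**Figure D2:**
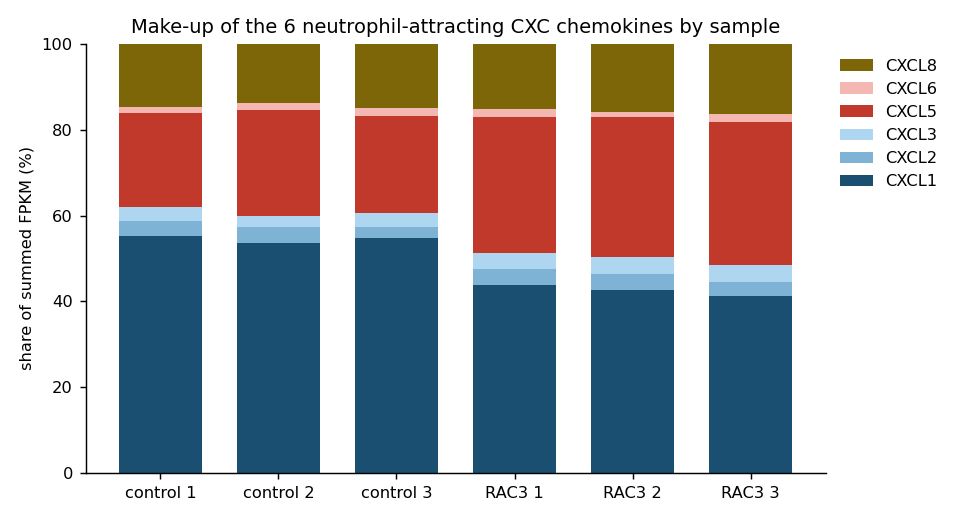
Share of each of the 6 neutrophil-attracting CXC chemokines in their summed FPKM (vertical axis, percent) in each of the 6 samples. The CXCL5 share ranges from 21.8% to 24.7% in the controls and from 31.6% to 33.4% in the RAC3 samples.

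CXCL16 (ENSG00000161921, chromosome 17 from 4733526 to 4739922), the transmembrane ligand of CXCR6, went the other way. It had 125.2, 119.1 and 132.4 CPM in the negative controls and 95.9, 94.7 and 102.2 CPM in the RAC3 samples. The groups were well apart, and the log2 fold change was -0.37 (SE 0.0545), the lowest of the 10 genes under TMM. After removal of the GC trend CXCL16 was at -0.255 and CXCL1 at -0.257. CXCL16 overlaps MED11 on the opposite strand by 85 bases, and the sources used here do not say whether the counts used strand. CCL20 (ENSG00000115009, chromosome 2 from 227805739 to 227817564) had 84.1, 79.2 and 93.2 CPM in the controls and 90.7, 85.9 and 77.9 CPM in the RAC3 samples. The groups overlapped fully, with the negative control 3 highest and the RAC3 sample 3 lowest. The log2 fold change was -0.01 (SE 0.0667), and its sign depended on the scaling, being 0.05 with library size alone. After removal of the GC trend it was -0.19 (SE 0.0592). CCL20 was among the most abundant of these RNAs per length, with nearly equal mean CPM in both groups under TMM. CSF1 (ENSG00000184371, chromosome 1 from 109910242 to 109930992) had 16.05, 11.3 and 13.8 CPM in the controls and 22.6, 19.1 and 20.6 CPM in the RAC3 samples. Every RAC3 sample was above every control, and the log2 fold change was 0.60 (SE 0.116), a ratio of 1.52. It was 0.48 without the negative control 2 and 0.53 without the RAC3 sample 1, both below a ratio of 1.5, against 0.71 without the negative control 1 and 0.76 after removal of the GC trend. The spread of CSF1 in the controls, with a coefficient of variation of 17.2%, was larger than the 6.84% that counting error would give.

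CCR6 (ENSG00000112486, chromosome 6 from 167111807 to 167139696), the receptor of CCL20, was near the limit of detection. The negative controls held 0, 6 and 14 counts of it and the RAC3 samples 22, 54 and 17, or 0, 0.40 and 0.78 CPM against 1.24, 3.28 and 1.21 CPM. A count of 0 allows up to 3 counts, which is 0.215 CPM in the negative control 1 and covers counting error only. The RAC3 sample 2 held most of the RAC3 counts, and the other RAC3 samples lay close above the negative control 3. The log2 fold change of 2.17 (SE 0.583) fell to 1.53 without the RAC3 sample 2 and was 3.16 without the negative control 3. CCR6 also shares most of its sequence with an overlapping gene on the same strand, Z94721.2, which covers 98% of its length, and 74.6% of its stretches of 50 bases occur in another gene. Z94721.2, named for this overlap after its values were seen, had 101, 97 and 111 counts in the controls and 169, 62 and 112 in the RAC3 samples. The RAC3 sample with the most CCR6 counts was thus the one with the fewest Z94721.2 counts. Summed over both genes, an alternative chosen after seeing the data, the levels were 7.23, 6.86 and 6.97 CPM in the controls and 10.7, 7.04 and 9.15 CPM in the RAC3 samples. The groups then overlapped at the RAC3 sample 2, and the log2 ratio of the means was 0.35, so the CCR6 value is uncertain. How the counting divided reads between these genes was not tested.

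**Figure D3:**
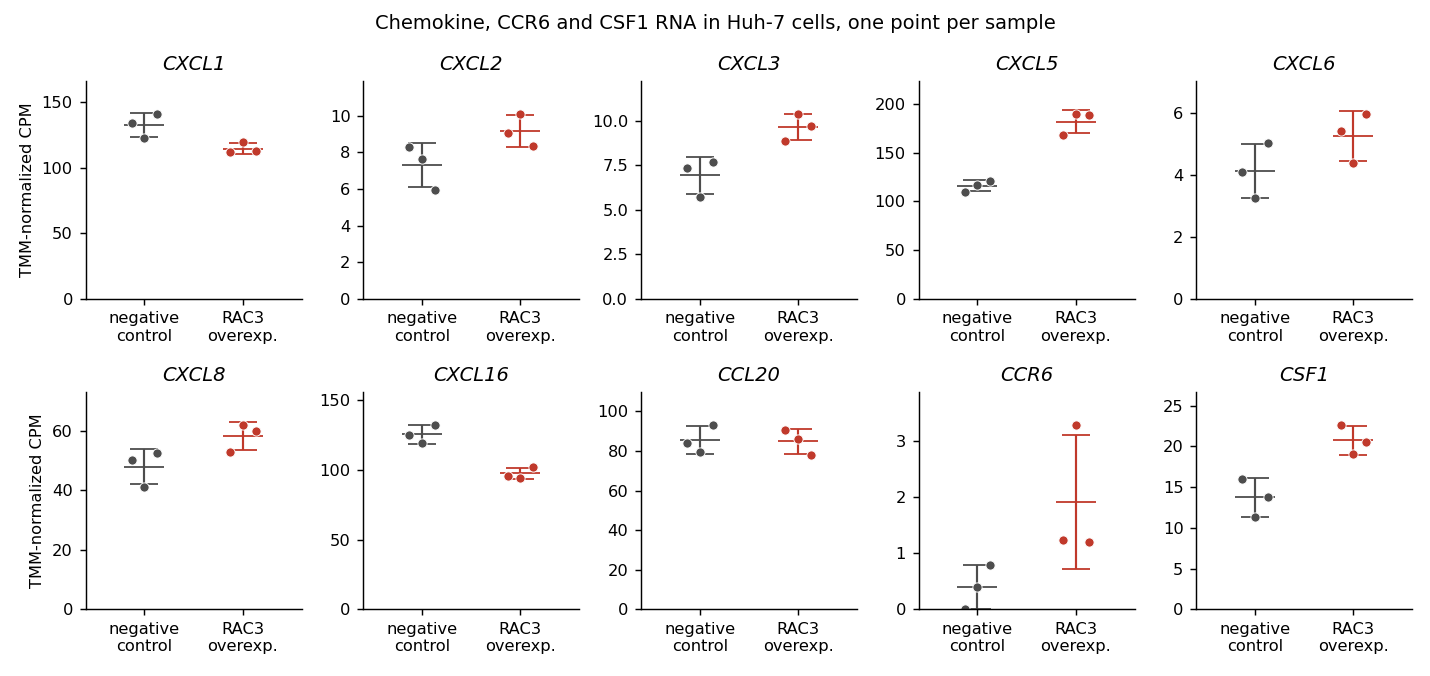
TMM-normalized CPM of the 10 genes, each on its own axis from 0; points are samples, horizontal lines are means and bars are SD of 3 samples. CXCL5, CSF1 and CXCL16 show groups that lie apart, CCL20 and CXCL6 show groups that overlap, and CCR6 has a high RAC3 sample at 3.28 CPM.

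All 10 genes passed the filter on low counts that left 12941 genes. CCR6, with 0 to 14 counts in the controls and 17 to 54 in the RAC3 samples, passed it only through the group where it was higher. Groups did not overlap, with the RAC3 samples higher, in 6 genes (CXCL5, CSF1, CCR6, CXCL3, CXCL2 and CXCL8), beside 20.9% of all genes tested, and with the RAC3 samples lower in 2 (CXCL1 and CXCL16), beside 21.6%. At an adjusted p below 0.05, 5 were higher, beside 13.3% of all genes, and 2 were lower, beside 15.3%. At the thresholds of the study, a fold change above 1.5 and an unadjusted p below 0.05, 3 were higher (CXCL5, CSF1 and CCR6), beside 1.68%, and 0 were lower, beside 2.99%. Nothing is read from these counts or from the median given below, since the genes were chosen on this difference. CSF1, at a ratio of 1.52, was the member just inside the fold threshold, and CXCL3, at 1.39, just outside. The median log2 fold change of the 10 genes was 0.34, against 0.00 for all genes tested. With library totals as the only scaling, the split of all genes went from 1717 higher and 1974 lower to 2613 higher and 1381 lower at an adjusted p below 0.05, while among the members only CCL20 changed sign under another scaling.

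The surroundings of the CXC cluster were examined because the 6 CXC genes are neighbours. Within 500 kb of it, 13 genes of the annotation were tested, of which 7 were not chemokine members. In map order these were ANKRD17, ALB, AFP and RASSF6 before CXCL8, and MTHFD2L, EREG and AREG after CXCL2. EREG, which encodes the growth factor epiregulin, had 30.7, 29.3 and 30.7 CPM in the controls and 49.2, 54.2 and 54.9 CPM in the RAC3 samples. It was higher in 3 of 3 RAC3 samples, with a log2 fold change of 0.80 (SE 0.0694, adjusted p = 1.28e-07, edgeR with Benjamini-Hochberg adjustment). AREG, which encodes amphiregulin, had 43.5, 43.2 and 50.6 CPM against 69.2, 70.4 and 66.9 CPM, a log2 fold change of 0.59 (SE 0.0671, adjusted p = 3.94e-06 in the same edgeR test, Benjamini-Hochberg). RASSF6 and AFP also passed an adjusted p of 0.05 with higher values, at log2 fold changes of 0.67 (SE 0.229) and 0.16 (SE 0.0429), and RASSF6, with 36 to 67 counts per sample, no longer passed when any of the 6 samples was left out. RASSF6 also missed the threshold in DESeq2, after removal of the GC trend and when the replicate number was added to the model (replicate block). Its log2 fold change lay between 0.559 and 0.727 with each sample left out. It was 0.669 in DESeq2, 0.667 with the replicate block and 0.505 after removal of the GC trend. AFP did not pass without the negative control 2, at a log2 fold change of 0.151, or after removal of the GC trend, at 0.0118. ALB, ANKRD17 and MTHFD2L did not pass. Of the 7 other neighbours 4 were thus higher and 0 lower, beside 13.3% and 15.3% of all genes tested, and the calls of RASSF6 and AFP among them depended on the settings named. The platelet chemokine genes PF4, PF4V1 and PPBP, which lie inside the cluster, had 0 or 1 count in each sample. CXCL1 thus had the lower level in the RAC3 samples between CXCL6 and CXCL5, which were both at higher means.

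**Figure D4:**
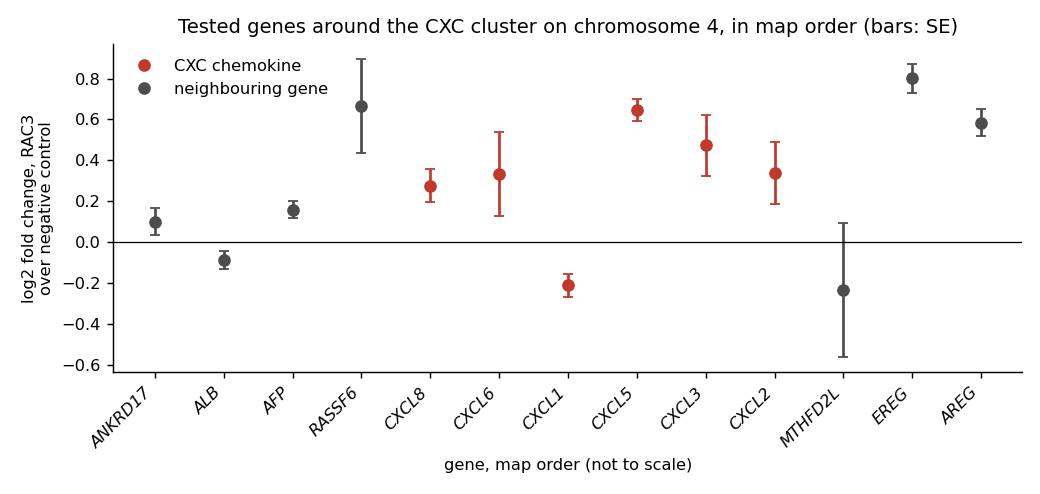
Log2 fold change of RAC3 overexpression over negative control, with its standard error as the bar, for the 13 tested genes within 500 kb of the CXC cluster on chromosome 4, in map order and not to scale; red marks CXC chemokines and grey other genes. CXCL1 (-0.21) lies below 0 between CXCL6 (0.33) and CXCL5 (0.65), and EREG (0.80) is the highest.

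The receptors that would read these ligands were largely undetected in the same cells. CXCR1 and CXCR2, the receptors of the neutrophil attractants, had 0 counts in all 6 samples, which allows up to 0.167 to 0.215 CPM. CXCR6, the receptor of CXCL16, had 0 counts in each control and 1, 0 and 3 counts in the RAC3 samples. CSF1R, the receptor of CSF1, had 1.93, 1.53 and 2.45 CPM in the controls and 1.97, 3.70 and 1.56 CPM in the RAC3 samples, with groups that overlapped (log2 fold change 0.29, SE 0.325), and the log2 fold change was -0.16 without the RAC3 sample 2. CCR6, described above, was the only receptor of a member with a higher level in all RAC3 samples, and the summed reads of its locus overlapped. Of 22 chemokine receptors other than CCR6, 4 were tested, of which 1 rose and 2 fell at an adjusted p below 0.05, beside 13.3% and 15.3% of all genes tested. ACKR2, a scavenger of CC chemokines, rose by a log2 fold change of 1.40 (SE 0.519, adjusted p = 0.0458, edgeR with Benjamini-Hochberg adjustment) on only 4 to 19 counts per sample, and the call was lost when any negative control or the RAC3 sample 3 was left out, with the replicate block, in DESeq2, without a filter beyond 1 count and after removal of the GC trend, while its log2 fold change in these settings lay between 1.34 and 1.52. It had 4 to 5 counts in the controls and 9 to 19 in the RAC3 samples, and so passed the filter on low counts only through the group where it was higher. Its adjusted p is therefore given as a description, from which nothing is concluded. Without the RAC3 sample 1 or 2 or with at least 10 counts required in every sample, it no longer passed this filter and was not tested. CXCR4, the receptor of CXCL12, had 13.6, 6.19 and 7.36 CPM in the controls and 6.08, 5.59 and 5.04 CPM in the RAC3 samples. Its log2 fold change of -0.68 (SE 0.223, adjusted p = 0.0273 in the edgeR test, Benjamini-Hochberg) rested on the negative control 1, and was -0.29 and no longer past the threshold without it. It also missed the threshold in limma-voom, at -0.579, and without the RAC3 sample 1, 2 or 3, at -0.752, -0.682 and -0.62. CCR1, named after its values were seen, had a log2 fold change of -0.45 (SE 0.139), and its call was lost without the negative control 2 or 3 or the RAC3 sample 2 or 3. The log2 fold change of CCR1 in these settings was -0.368, -0.445, -0.437 and -0.424.

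Most other ligands were scarce beside the members. Of 36 further CXC, CC, XC and CX3C ligands 4 were tested and 20 had 0 counts in all samples. Of the 4, 0 passed an adjusted p of 0.05 and 0 an unadjusted p of 0.05 in edgeR, DESeq2 or limma-voom, while 1 passed both in edgeR without the negative control 3. After removal of the GC trend 0 passed the adjusted and 2 the unadjusted threshold. CX3CL1, named after its values were seen, was the abundant exception with 153.5 to 173.8 CPM. Of 7 genes for colony-stimulating factors and receptors other than CSF1, CSF1R alone was tested, and it did not pass. CSF2 and CSF3, which act on granulocytes and macrophages, had 0 to 2 counts per sample. CSF1 was thus the colony-stimulating factor that these libraries could measure.

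Genes that act before and after the members were taken from lists written from general knowledge, but with earlier results of these data known. The p-values of genes from this report's lists are therefore read as a description. IL1A, IL1B and TNF, the usual inducers of the CXC genes, had at most 3, 2 and 6 counts in a sample and were not tested. Of 23 genes for upstream cytokines and their receptors, 15 were tested, and 2 were higher and 1 lower at an adjusted p below 0.05. Among 25 tested NF-kappaB, C/EBP and AP-1 genes 5 were higher and 4 lower, again beside 13.3% and 15.3% of all genes. NFKBIZ, a nuclear cofactor of NF-kappaB that serves a subset of its targets, had 33.7, 34.6 and 40.0 CPM in the controls and 58.6, 62.4 and 60.8 CPM in the RAC3 samples. Its log2 fold change was 0.74 (SE 0.0709, adjusted p = 4.24e-07, edgeR with Benjamini-Hochberg adjustment), higher in 3 of 3 RAC3 samples. CEBPD, of the C/EBP family, was higher in 3 of 3 RAC3 samples by a log2 fold change of 0.72 (SE 0.0566, adjusted p = 3.93e-08 in the same edgeR test, Benjamini-Hochberg). The lower genes, named after their values were seen, were JUNB, CEBPA, NFKBIE and JUND, with log2 fold changes of -0.57 (SE 0.0794), -0.48 (SE 0.0522), -0.39 (SE 0.131) and -0.35 (SE 0.0625). After removal of the GC trend JUNB was at -0.356 and CEBPA at -0.255, both past the threshold, and JUND was at -0.08 and not past it. The call of NFKBIE was lost there, with library size alone, in DESeq2, and without the negative control 2 or 3 or the RAC3 sample 1 or 3. Its log2 fold change was -0.24 without the RAC3 sample 1 and -0.22 after removal of the GC trend. In the other settings named it lay between -0.332 and -0.428. The other higher genes, also named after their values were seen, were FOSL2, the NF-kappaB subunit REL and the kinase CHUK, with log2 fold changes of 0.37 (SE 0.0922), 0.37 (SE 0.0758) and 0.27 (SE 0.0829). REL was at 0.22 after removal of the GC trend, and CHUK lost its call there and without the negative control 1 or 2 or the RAC3 sample 1 or 3. CHUK was at 0.0929 after removal of the GC trend and at 0.177 and 0.279 without the negative controls 1 and 2. Without the RAC3 samples 1 and 3 it was at 0.201 and 0.277. NFKB1, RELA, NFKBIA and CEBPB, textbook genes of NF-kappaB and C/EBP regulation, had log2 fold changes of -0.01, -0.01, -0.11 and 0.06 and did not pass, except that CEBPB passed after removal of the GC trend. CXCL5 and NFKBIZ thus had ratios of 1.57 and 1.67, and no relation between them was tested.

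Among 10 factors of AU-rich element and chemokine mRNA decay, 3 were higher and 2 lower at an adjusted p below 0.05, beside 13.3% and 15.3% of all genes. ADAM10, the protease that sheds CXCL16, was 1 of 5 tested genes for shedding and cleavage, and had 129.2, 127.7 and 141.2 CPM in the controls against 153.9, 147.9 and 141.1 CPM, with groups that overlapped. Its log2 fold change of 0.15 (SE 0.0527, adjusted p = 0.0354, edgeR with Benjamini-Hochberg adjustment) was -0.000478 after removal of the GC trend, and the call was lost with the replicate block and without the negative control 1 or 2 or the RAC3 sample 1 or 2. With the block or these samples left out, the log2 fold change lay between 0.121 and 0.154. ADAM17 did not pass, with a log2 fold change of 0.08 (SE 0.0826). Of 21 tested genes for chemokine receptor signalling 2 were higher and 7 lower, beside 13.3% and 15.3% of all genes. Over the 8 lists, 85 of 153 genes were tested, 14 were higher and 16 lower at an adjusted p below 0.05, beside the same 13.3% and 15.3%, and the median log2 fold change was -0.02, against 0.00 for all genes tested. With library size alone this split was 16 higher and 10 lower, beside 2613 and 1381 of all 12941 genes tested.

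**Figure D5:**
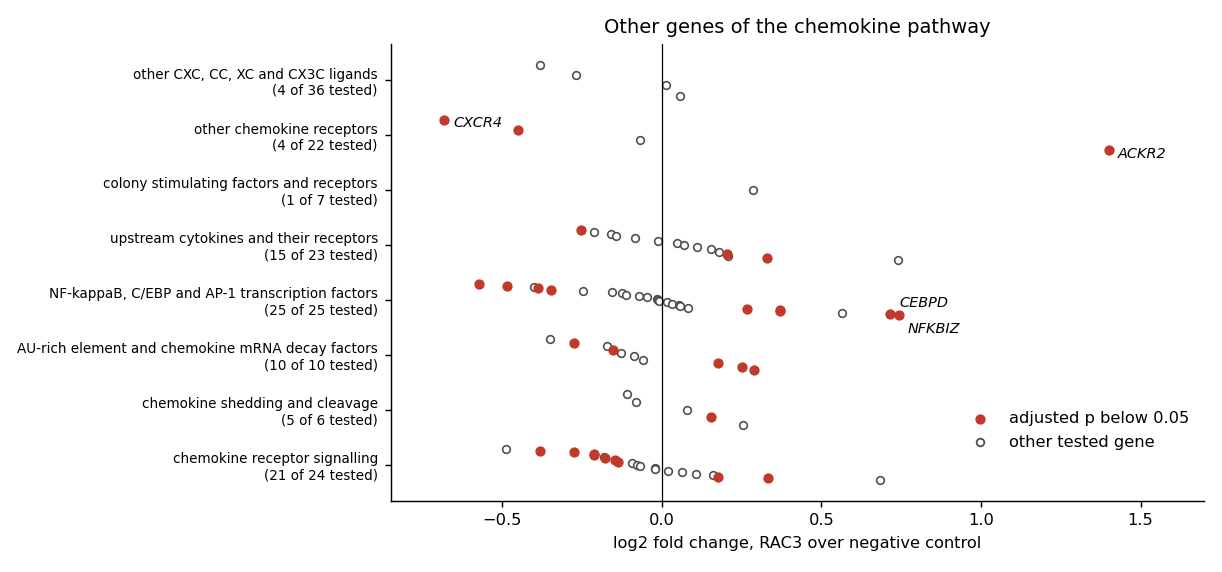
Log2 fold change of RAC3 overexpression over negative control (horizontal axis) for each tested gene of the 8 lists of other chemokine pathway genes; filled red points have an adjusted p below 0.05 in edgeR and open points do not. Names mark genes also past a fold change of 1.5, which are CXCR4 (-0.68), ACKR2 (1.40), NFKBIZ (0.74) and CEBPD (0.72).

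Markers of several cell types were read as a description of these samples, which were all of the Huh-7 line. All 9 hepatocyte and liver cancer markers were detected, ALB being the most abundant, and their summed level was 5510, 5560 and 5590 CPM in the controls and 5580, 5060 and 5200 CPM in the RAC3 samples. Of these 9, 3 were higher (FGB, APOB and AFP) and 2 lower (TF and TTR) at an adjusted p below 0.05, beside 13.3% and 15.3% of all genes tested, so that the sum holds differences in both directions, from -0.56 for TF to 0.30 for FGB in log2 fold change. Except for AFP these called markers, and those that follow, were named after their values were seen. Of 12 leukocyte, neutrophil and macrophage markers, S100A8, FCGR3B and CD163 had 0 counts in all samples, and PTPRC, present on all leukocytes, had 0 to 9 counts per sample. The summed level of this list was 45.5, 49.9 and 53.7 CPM in the controls and 43.2, 46.0 and 44.0 CPM in the RAC3 samples, mostly from CD14, and 1 of 4 tested genes was higher (CD68) and 1 lower (CD14), beside the same shares of all genes. The call of CD68 was lost in DESeq2 and without the negative control 3 or the RAC3 sample 1 or 2. Its log2 fold change there was 0.471, 0.319, 0.486 and 0.387, against 0.473 at first. The 7 lymphocyte markers summed to at most 1.27 CPM, with MS4A1 and NKG7 at 0 and CD3D most abundant, and 0 of them were tested. The 4 endothelial markers summed to 2.53 to 3.76 CPM, mainly PECAM1, and 0 of 1 tested gene passed. The 7 fibroblast and stellate markers, none at 0 in all samples, summed to 233, 243 and 249 CPM in the controls and 285, 273 and 280 CPM in the RAC3 samples, mostly from LUM, with 2 of 5 tested genes higher (COL1A2 and LUM) and 1 lower (COL1A1), again beside 13.3% and 15.3%. PDGFRB, with 24 to 49 counts per sample, had the largest difference of this list, a log2 fold change of -0.71 (SE 0.271), opposite in direction to the sum. It was past the thresholds of the study but not an adjusted p of 0.05, which among the alternatives it passed without the negative control 3 and under the filter that asks for 10 counts in each sample. After removal of the GC trend LUM and COL1A1 did not pass, and COL1A1 also lost its call with library size alone, in DESeq2, and without the negative control 1 or 3 or the RAC3 sample 1 or 3. Apart from the GC setting, the log2 fold change of COL1A1 where the call was lost lay between -0.161 and -0.216, against -0.217 at first. The part of these markers in the chemokine values was not tested. In these bulk samples, a change in the number of cells making a chemokine and a change in RNA per cell cannot be told apart.

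The genes whose pattern over the 6 samples was most like that of CXCL5 were named by distance between centred log2 profiles, among 11220 other genes with at least 50 counts on average. They were NNMT (distance 0.125), PAPSS2 (0.133), ODR4 (0.144), MFSD4B (0.171) and RCAN1 (0.173). NNMT had 2.51, 2.46 and 2.57 CPM in the controls and 4.39, 4.68 and 4.82 CPM in the RAC3 samples, and like CXCL5 it was lowest of its group in the RAC3 sample 1. The profiles were taken as log2(CPM + 1), which shrinks differences at low CPM: the fitted log2 fold change of NNMT was 0.88 (SE 0.211) against 0.65 for CXCL5. The rank of NNMT with another added value was not tested. By the same measure CXCL3 was the closest member to CXCL5, at rank 253 (distance 0.402), followed by CSF1 at rank 741 and CXCL8 at rank 861. CXCL2 and CXCL6 ranked 1915 and 2146, CCL20 6108, CXCL1 8999 and CXCL16 10380, while CCR6 had too few counts to be ranked. CXCL6, with the promoter most like that of CXCL5, was therefore farther from it in pattern than CXCL3, CXCL8 or CSF1, as a description at unequal depth.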

How the data were processed

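The authors deposited raw counts per gene for 3 negative controls and 3 RAC3 samples of Huh-7 cells. The same table holds FPKM values made by the authors, and the gene lengths behind them are not given in the sources used here. Its mean FPKM per group was not used. The submitters' processing notes name Bowtie2 2.2.8, HISAT2, StringTie 1.3.1 and DESeq2. The genome build and annotation are not given in the sources used here. The counts were fitted with edgeR 4.0.16 (R 4.3.3): filterByExpr, TMM, quasi-likelihood F test, two-sided, Benjamini-Hochberg adjustment over 12941 genes, and no covariate, with a biological coefficient of variation of 0.0533. The steps were tested on simulated data. Samples were grouped by their titles. Total counts lay between 13855762 and 18199888.

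The members and the gene lists were chosen with earlier results of these data known. Named genes were all members and RAC3, list genes past a fold change of 1.5 and a p of 0.05 with an adjusted p below 0.05 (at most 5 per list and direction), receptors and regulators by textbook role, the 5 genes closest to CXCL5 in log2(CPM + 1) pattern, and genes within 500 kb of the CXC cluster. Alternatives were DESeq2 1.42.0 (size factors and Wald test), limma 3.58.1 (voom), upper quartile and library size scaling, 2 other filters, a term for the replicate number, each sample left out, removal of the GC trend (lowess, span 0.3), a fold threshold of 2, and FPKM ratios. Gene positions and transcripts came from GENCODE release 29 (GRCh38). Promoters came from RefSeq and were aligned with Biopython 1.88 (global, match 1, mismatch -1, gap -2 and -1 for each further base).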

Additional observations from a re-analysis of the deposited data

How the results depend on the processing

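The alternatives left RAC3 and most summaries where they were. The RAC3 log2 fold change lay between 2.76 and 2.85 with each sample left out and between 2.80 and 3.04 otherwise. The number of members with an adjusted p below 0.05, 7 at first, was 4 without the RAC3 sample 2, 5 without the negative control 2 or the RAC3 sample 3, and 6 or 7 with each other sample left out. Over all genes, 3691 of 12941 passed at first and 3311 of 13056 without the RAC3 sample 2. Without the negative control 2 it was 2822 of 13140, and without the RAC3 sample 3 it was 2735 of 13112. The number past the fold threshold of 1.5, 3 at first, was 2 to 3 with each sample left out and 1 at a fold change above 2, where fewer genes pass by construction. Over all genes, 605 passed the threshold of 1.5 at first and 562 to 660 with each sample left out. With at least 10 counts in every sample CCR6 was not tested. DESeq2 gave 6 members with an adjusted p below 0.05, CCR6 not being among them. Removal of the GC trend gave 7, with CCL20 in place of CXCL8. Over all genes, 3115 of 12941 passed in DESeq2 and 2684 of 12863 after removal of the GC trend. Since the members were chosen on this difference, nothing is read from their calls in any setting. The median log2 fold change of the members was 0.27 to 0.43 with each sample left out. Of the other pathway genes, 9 to 14 were higher and 11 to 17 lower with each sample left out, 9 higher being reached without the negative control 2 and without the RAC3 sample 1. Over all 13039 to 13140 genes tested in these settings, 1164 to 1522 were higher and 1466 to 1789 lower, against 1717 and 1974 at first. Library size alone gave 10 lower and removal of the GC trend 9 lower, with 13 higher. Over all genes, library size alone gave 1381 of 12941 lower. Removal of the GC trend gave 1411 lower and 1273 higher of 12863. Of 367 values of single genes named by rule under the alternatives, 319 kept their side of the threshold or, for members, moved by less than a standard error. Apart from ADAM10, which turned to -0.000478 after removal of the GC trend, no named gene with a call changed sign, and the cause was not tested. CEBPB passed after removal of the GC trend, with a log2 fold change of 0.29.

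The replicate numbers did not pair the samples: deviations from the group means correlated at -0.0873, -0.0455 and -0.0207 over 11221 genes for the numbers 1, 2 and 3. With the replicate block, the RAC3 log2 fold change was 2.81, 7 members had an adjusted p below 0.05, and of the other pathway genes 12 were higher and 15 lower. Over all 12941 genes tested, 1484 were higher and 1777 lower with the block. The calls of ACKR2, ADAM10 and RASSF6 were lost, at log2 fold changes of 1.36, 0.154 and 0.667. CXCL2, CXCL3, CXCL6, CCR6, CSF1R, RASSF6 and ACKR2 had few counts, and in the controls the spread of the 4 members among them was larger than counting error would give. In the RAC3 samples the same held for CXCL2, CXCL6 and CCR6. CXCL3 there had a coefficient of variation of 7.74%, against 8.02% from counting error.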
